A study of Mus musculus with 16 samples.

Results

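FoxO transcription factors and 6 further genes tied to growth restraint were followed across hematopoietic stem cells (HSCs) sorted by MAC-1, the integrin made of CD11B and CD18. The genes were *Foxo1*, *Foxo3*, *Foxo4*, *Txnip*, *Nupr1*, *Btg1*, *Btg2*, *Klf2* and *Tsc1*, chosen by name with earlier results of these data known. All 9 were found once each among the 46078 genes of the count table. HSCs were LSK cells (lineage-, cKIT+, SCA1+) that were CD48- and CD150+, from wild-type B6.SJL mice labelled untreated, and neither the ages nor the number of mice behind a sample were given in the sources used here. SS MAC-1- (n = 3) and SS MAC-1low (n = 3) HSCs came from steady-state mice. The 4 week MAC-1- (n = 3), 4 week MAC-1low (n = 4) and 4 week MAC-1+ (n = 3) HSCs came from recipients irradiated with 900 cGy and given 8000 LSK cells 4 weeks earlier. In the serial transplants that the paper describes, the LSK cells were LY5.1 (B6SJL) and the recipients LY5.2 (C57Bl/6). Whole bone marrow of LY5.2 mice was given with them, and donor cells were labelled by CD45.1. A protocol text that describes this transplantation is attached to every sample, the SS samples too, and the SS groups rest on the sample titles. RNA of small sorted pools was amplified by SMART-Seq chemistry along the full transcript, without molecular identifiers, and the deposited values are raw read counts per gene.

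FoxO proteins are forkhead transcription factors. When growth factors activate PI3K and AKT, FoxO proteins are phosphorylated, bound by 14-3-3 proteins and held in the cytoplasm, and when that signal is low they enter the nucleus and switch on genes for cell cycle arrest, antioxidant defence and growth restraint. In HSCs they are known for holding cells in quiescence and for keeping reactive oxygen species low. TSC1 works on the other arm of AKT signaling, where the TSC complex restrains mTORC1. TXNIP binds thioredoxin and limits glucose uptake, BTG1 and BTG2 slow division and recruit the CCR4-NOT deadenylase, KLF2 is known for lymphocyte and endothelial quiescence, and NUPR1 is a small chromatin protein induced by stress.

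Total counts per sample ran from 13781278 to 28580658, and a count of 0 allowed up to 3 counts, or 0.105 to 0.218 CPM (the count of a gene scaled to the library total), counting error only. All 9 genes passed the filter on low counts, which left 13661 genes for edgeR's quasi-likelihood test in 1 model of the 16 samples. CPM were scaled with TMM factors, and a gene was called at a Benjamini-Hochberg adjusted p below 0.1 over all genes tested. The replicates are separate samples by label only, so p-values measure the spread between these samples, which may be technical. Transcripts of all 12 HSC markers were found in each population, summed to 809 to 1000 CPM in 4 week MAC-1- samples, 1604 to 2159 in 4 week MAC-1low and 2411 to 3576 in 4 week MAC-1+ samples, against 1607 to 2095 in SS samples of both kinds. In pools of sorted cells, fewer cells of a type and less RNA per cell cannot be told apart.

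Per kilobase of exon, *Txnip*, *Nupr1* and *Klf2* had the highest levels of the 9 genes in each population. In 4 week MAC-1+ HSCs the mean levels were 78.4 CPM per kb for *Txnip*, 69.1 for *Nupr1* and 55.7 for *Klf2*. *Btg1* (19.8), *Btg2* (10.02) and *Foxo3* (9.04) lay between, and *Foxo1* (3.93), *Tsc1* (3.20) and *Foxo4* (0.785) were low. In 4 week MAC-1- HSCs *Klf2* came first, at 58.5 CPM per kb, with *Nupr1* at 36.3 and *Txnip* at 26.2. Among the FoxO genes the order *Foxo3* above *Foxo1* above *Foxo4* held in 4 of 5 populations, and in SS MAC-1- HSCs *Foxo4* (3.02) stood above *Foxo1* (0.959) through a single sample.

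**Figure D1:**
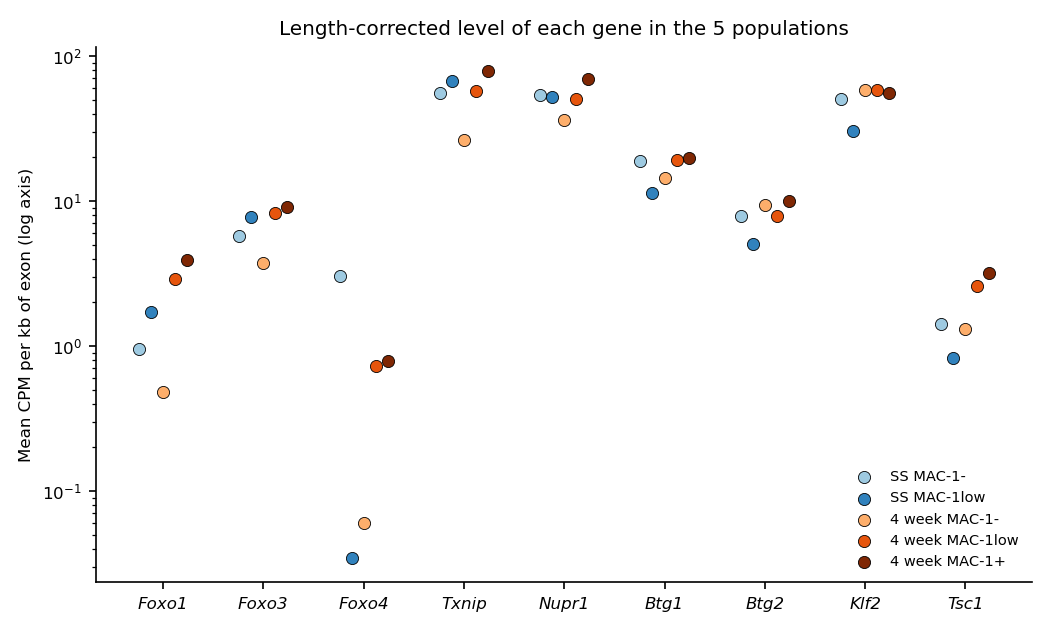
Mean CPM per kb of exon (log axis) of each gene in the 5 HSC populations, 1 point per population, so that levels can be compared between genes. *Txnip*, *Nupr1* and *Klf2* sit highest, and the lowest point of *Txnip* is that of 4 week MAC-1- HSCs (26.2 CPM per kb).

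*Txnip* (ENSMUSG00000038393, chr3:96557957-96561883 on GRCm38, plus strand) was the only gene of the 9 that edgeR called in any of the comparisons. Its transcript is known to rise under FoxO factors and under glucose-sensing MondoA and ChREBP, which bind paired E-boxes. The 250 bases before its start (RefSeq promoter table, GRCm38.p6, chr3:96557707-96557956, plus strand) are shown because both kinds of letters stand in them. Capitals mark the FoxO core GTAAACA at -121 to -115 and both CACGAG repeats of the motif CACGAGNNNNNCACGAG at -85 to -69:
Txnip: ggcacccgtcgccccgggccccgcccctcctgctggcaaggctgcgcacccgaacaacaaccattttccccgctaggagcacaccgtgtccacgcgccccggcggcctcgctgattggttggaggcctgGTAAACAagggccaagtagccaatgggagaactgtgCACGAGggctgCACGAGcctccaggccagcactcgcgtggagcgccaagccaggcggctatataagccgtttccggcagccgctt

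Promoters of 300 bases (250 before and 50 after the start) were matched for 8 of the 9 genes, all but *Foxo4*, and searched on both strands. The FoxO core GTAAACA stood in 2 of the 8, *Txnip* and *Btg1*, and in 3.65% of all 32851 promoters. The paired motif, searched because it had been read in the *Txnip* promoter, was in that promoter only, 1 of 32851 (0.00304%). CACGTG stood in the *Nupr1* promoter (7.15% of all promoters) and TGACGTCA in the *Btg2* promoter (1.79%), with no overlap among the matches. Promoters were also matched for 5 of the pathway genes called below (*Pik3ip1*, *Ccng2*, *Tob1*, *Arrdc3* and *Txn1*), and 0 of the 5 held any of these motifs. The matches describe letters and not binding. In *Btg1* the core lies on the opposite strand, at -204 to -198 (chr10:96616770-96616830, GRCm38.p6, plus strand, capitals mark the core):
Btg1: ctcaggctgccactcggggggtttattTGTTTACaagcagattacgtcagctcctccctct

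*Txnip* was at 206, 253 and 275 CPM in the 4 week MAC-1+ samples, against 67.3, 121 and 56.8 CPM in the 4 week MAC-1- samples. All 4 week MAC-1low samples lay between these groups, at 169, 192, 163 and 197 CPM, without overlap with either. The SS samples had 121, 129 and 273 CPM in MAC-1- and 169, 224 and 234 CPM in MAC-1low HSCs, so that SS MAC-1- replicate 3 and SS MAC-1low replicates 2 and 3 fell into the range of the 4 week MAC-1+ samples.

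At 4 weeks *Txnip* rose in MAC-1+ relative to MAC-1- HSCs by a log2 fold change of 1.58 (SE 0.34, 3.00-fold, adjusted p = 0.0231, edgeR), from 81.8 ± 34.6 (SD, n = 3) to 245 ± 35.2 (SD, n = 3) CPM. The call was lost without 4 week MAC-1- replicate 1 (adjusted p = 0.113) or replicate 3 (0.117), and in a model of those 6 samples alone (0.114), with log2 fold changes of 1.46, 1.38 and 1.60. Of 13661 genes, 444 (3.25%) were called in that comparison, and 1 of the 9 genes. No strand setting is stated for the counts, so reads where exons of *Txnip* and of the antisense gene *Gm15441* overlap cannot be told apart. *Gm15441* had 17, 0 and 5 counts in the MAC-1+ and 112, 55 and 43 in the MAC-1- samples at 4 weeks. *Txnip* had 4351, 4041 and 6972 counts in the same MAC-1+ and 1074, 3204 and 942 in the same MAC-1- samples.

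The other differences of *Txnip* missed the threshold. For 4 week MAC-1low set against 4 week MAC-1- HSCs the log2 fold change was 1.14 (SE 0.32, adjusted p = 0.302, edgeR), and DESeq2 (0.0132) and limma-voom (0.0665) called it. In 4 week MAC-1- HSCs relative to SS MAC-1- HSCs it was -1.09 (SE 0.33, adjusted p = 0.281, edgeR, and 0.0288 with DESeq2), and -0.62 without SS MAC-1- replicate 3 (adjusted p = 0.542, edgeR). Ordered by mean CPM, 4 week MAC-1- (81.8) came lowest, then SS MAC-1- (175), 4 week MAC-1low (180), SS MAC-1low (209) and 4 week MAC-1+ (245). No neighbouring pair in this order that was tested passed the threshold. The joint F test of the 5 populations gave *Txnip* an adjusted p of 0.132 and the other 8 genes 0.374 to 1.00, so that 0 of 9 were called where 2.22% of all genes were. In the joint test 1 of the 9 had an unadjusted p below 0.05 (all genes 13.8%), DESeq2 called 1 (all genes 10.9%, here and below over genes to which DESeq2 gave an adjusted p) and limma-voom called 1 (all genes 2.66%).

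**Figure D2:**
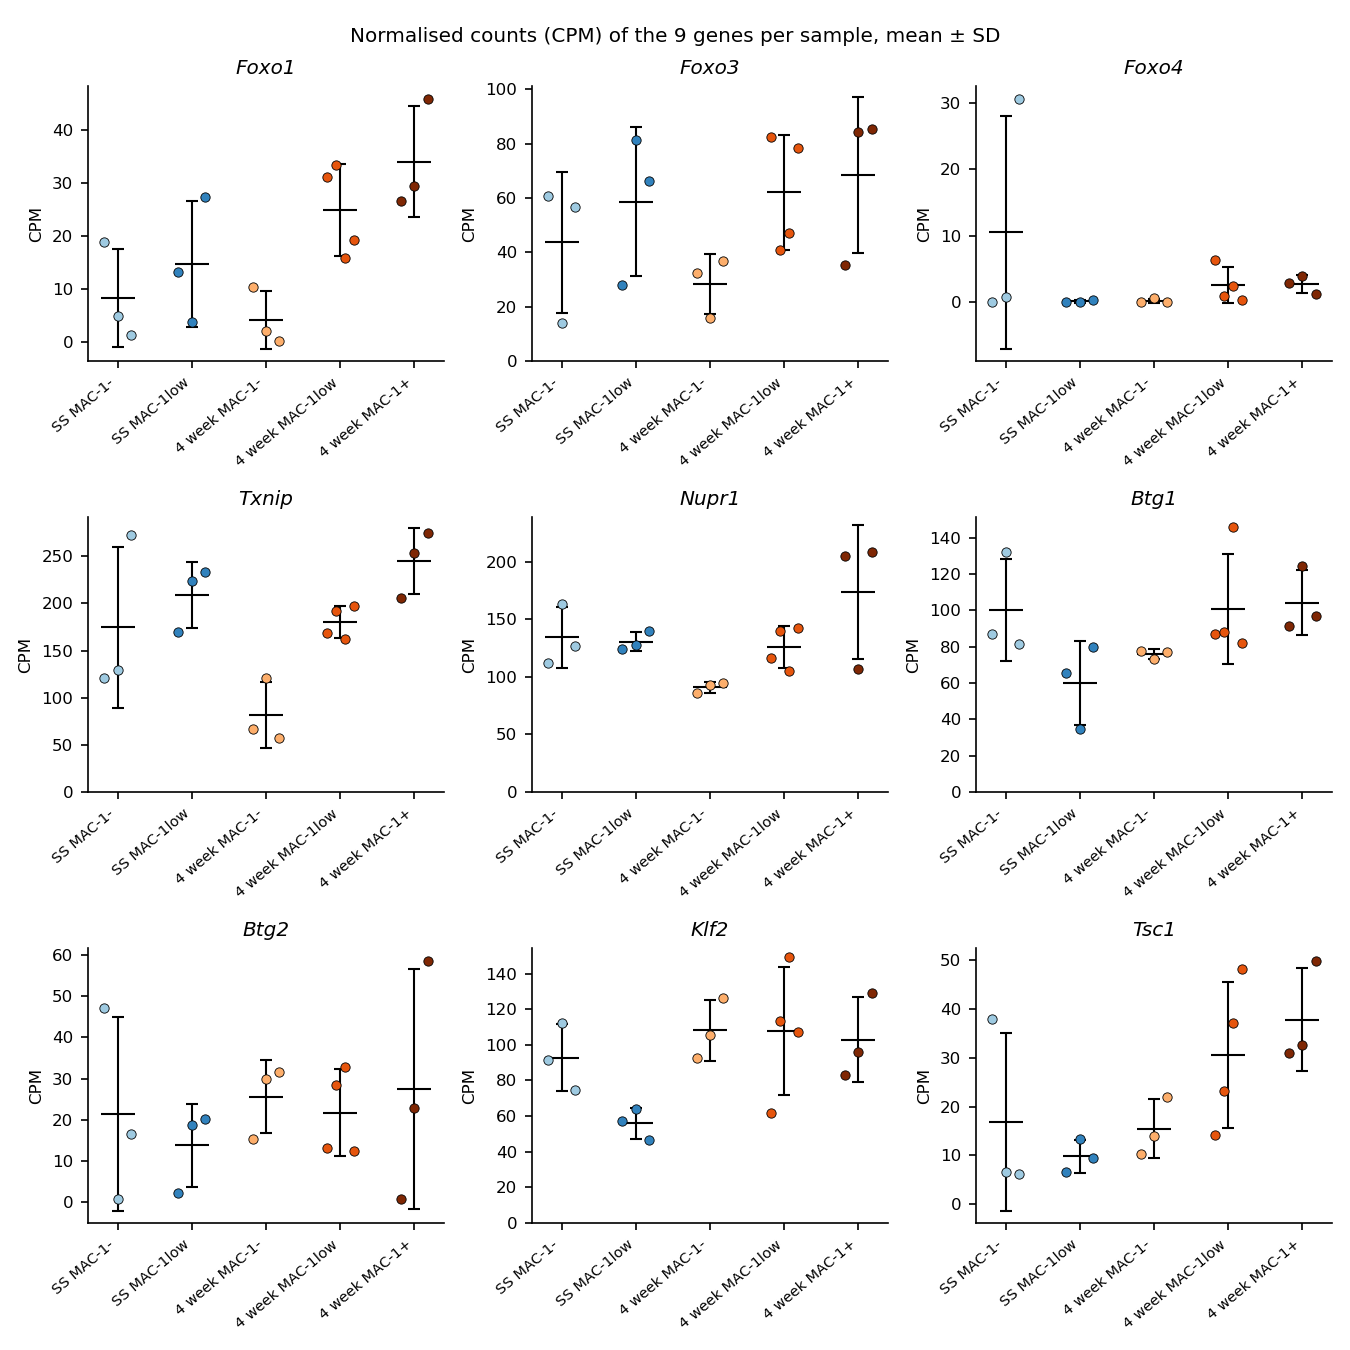
CPM of the 9 genes (linear axes) in each of the 16 samples (points), with the mean and SD of each population. The 4 week MAC-1- samples of *Txnip* (56.8 to 121 CPM) lie below all 4 week MAC-1low and MAC-1+ samples, while *Foxo4* is near 0 in most samples.

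At 4 weeks all 3 FoxO transcripts had higher means in MAC-1+ than in MAC-1- HSCs, and edgeR called 0 of them. *Foxo1* (ENSMUSG00000044167, chr3:52268336-52353221) had 26.6, 29.5 and 46.1 CPM in 4 week MAC-1+, 31.2, 33.4, 15.9 and 19.3 CPM in 4 week MAC-1low and 10.4, 1.97 and 0.181 CPM in 4 week MAC-1- samples. The 4 week MAC-1- samples were below all other 4 week samples, and the lowest held 3 counts. SS samples spread as widely, with 18.9, 4.81 and 1.23 CPM in MAC-1- and 13.2, 3.68 and 27.4 CPM in MAC-1low HSCs. For *Foxo1* the log2 fold change was 3.02 (SE 1.24, adjusted p = 0.297, edgeR) in MAC-1+ relative to MAC-1- HSCs at 4 weeks. It moved to 4.97 without 4 week MAC-1- replicate 1 and to 2.46 without replicate 3, and was 4.36 with limma-voom and with detected genes as covariate. DESeq2 (0.0570) and limma-voom (0.0507) called it.

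*Foxo3* (ENSMUSG00000048756, chr10:42181841-42276755), the FoxO gene best known in HSCs, had 35.5, 84.5 and 85.5 CPM in 4 week MAC-1+ samples, against 32.5, 15.9 and 36.8 CPM in 4 week MAC-1- samples. These groups overlapped through 4 week MAC-1+ replicate 1. The 4 week MAC-1low samples had 82.3, 40.8, 47.1 and 78.3 CPM, all above the 4 week MAC-1- samples, and the SS samples 60.7, 13.9 and 56.5 CPM (MAC-1-) and 28.1, 81.2 and 66.4 CPM (MAC-1low). The log2 fold change was 1.27 (SE 0.60, adjusted p = 0.380, edgeR) in 4 week MAC-1+ and 1.13 (SE 0.57, adjusted p = 0.707) in 4 week MAC-1low, each against 4 week MAC-1- HSCs.

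*Foxo4* (ENSMUSG00000042903, chrX:101254528-101260873) was scarce. At 4 weeks its counts were 61, 64 and 33 in MAC-1+, 104, 20, 49 and 9 in MAC-1low and 0, 15 and 1 in MAC-1- samples. In SS MAC-1low samples it had 0, 0 and 7 counts, and in SS MAC-1- samples 0, 16 and 600. The last sample, SS MAC-1- replicate 3, stood far above the other 15. The log2 fold change of *Foxo4* in SS MAC-1low against SS MAC-1- HSCs was -6.37 (SE 2.75, adjusted p = 0.521, edgeR, and 0.0724 with DESeq2) with that sample and -1.75 without it (adjusted p = 0.921, edgeR). Relative to SS MAC-1- HSCs, the fitted value of *Foxo4* moved from -5.58 to -0.97 in 4 week MAC-1- HSCs, and from -1.94 to 2.68 in 4 week MAC-1+ HSCs, when that sample was left out. *Foxo6*, the remaining FoxO gene, had at most 1 count in any sample.

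*Nupr1* (ENSMUSG00000030717, chr7:126623249-126630861, minus strand) had 205, 107 and 209 CPM in 4 week MAC-1+ samples, against 85.7, 93.3 and 94.4 CPM in 4 week MAC-1- samples. The 4 week MAC-1- samples were tight and below all 13 other samples, since 4 week MAC-1low had 117, 140, 105 and 143 CPM, SS MAC-1- 112, 164 and 127, and SS MAC-1low 124, 127 and 140 CPM. The log2 fold change in MAC-1+ relative to MAC-1- HSCs at 4 weeks was 0.93 (SE 0.27, adjusted p = 0.110, edgeR). *Nupr1* was called with DESeq2 (0.00780) and limma-voom (0.0681), with DESeq2's size factors in edgeR (0.0820), and without 4 week MAC-1+ replicate 2 (0.0351). *Nupr1* belongs to a list of HSC genes that the study chose on these samples, so that its direction is not independent evidence.

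*Btg1* (ENSMUSG00000036478, chr10:96617006-96622809) was expressed at similar levels in most samples. It had 91.3, 124 and 97.0 CPM in 4 week MAC-1+, 87.1, 88.2, 146 and 82.0 CPM in 4 week MAC-1low and 77.8, 73.1 and 77.2 CPM in 4 week MAC-1- samples, without overlap between the last group and the others. The step was small, with a log2 fold change of 0.46 (SE 0.35, adjusted p = 0.653, edgeR) in 4 week MAC-1+ HSCs. In SS HSCs the order was turned around, with 86.9, 132 and 81.4 CPM in MAC-1- and 65.7, 34.8 and 79.6 CPM in MAC-1low samples. The difference between the MAC-1low against MAC-1- effects at 4 weeks and at SS was 1.14 on the log2 scale for *Btg1* (SE 0.48, unadjusted p = 0.0307 and adjusted p = 0.503 in the edgeR interaction test).

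*Btg2* (ENSMUSG00000020423, chr1:134075170-134079120, minus strand) varied widely within populations. Its CPM were 0.853, 22.9 and 58.6 in 4 week MAC-1+, 13.2, 28.5, 32.9 and 12.5 in 4 week MAC-1low and 15.4, 29.99 and 31.5 in 4 week MAC-1- samples. SS samples had 47.0, 0.837 and 16.6 CPM (MAC-1-) and 2.24, 18.8 and 20.3 CPM (MAC-1low). The log2 fold change in MAC-1+ relative to MAC-1- HSCs at 4 weeks was 0.10 with an SE of 1.25 (adjusted p = 0.994, edgeR), so that a change of 1 in either direction is within its error.

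*Klf2* (ENSMUSG00000055148, chr8:72319033-72321656) had its lowest mean in SS MAC-1low HSCs, not in 4 week MAC-1- HSCs. Its SS MAC-1low samples had 57.1, 64.1 and 46.8 CPM, against 91.8, 112 and 74.7 CPM in SS MAC-1- samples. The 4 week samples had 92.4, 106 and 126 CPM (MAC-1-), 61.5, 113, 149 and 107 CPM (MAC-1low) and 83.3, 96.1 and 129 CPM (MAC-1+). Only 4 week MAC-1low replicate 1 fell into the SS MAC-1low range. The log2 fold change was -0.73 in SS MAC-1low against SS MAC-1- (SE 0.33, adjusted p = 0.532), 0.94 in 4 week MAC-1low against SS MAC-1low (SE 0.32, adjusted p = 0.434) and 0.88 in 4 week MAC-1+ against SS MAC-1low HSCs (SE 0.33, adjusted p = 0.314), all with edgeR. DESeq2 called the last 2 (0.0866 and 0.0953). At 4 weeks *Klf2* had, in MAC-1+ relative to MAC-1- HSCs, a log2 fold change of -0.07 (SE 0.33, adjusted p = 0.977, edgeR), and 0.0028 with DESeq2's size factors.

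*Tsc1* (ENSMUSG00000026812, chr2:28641228-28691167) had 31.0, 32.6 and 49.998 CPM in 4 week MAC-1+, 14.2, 23.3, 37.1 and 48.2 CPM in 4 week MAC-1low and 10.2, 14.01 and 22.1 CPM in 4 week MAC-1- samples. The 4 week MAC-1+ samples were above the 4 week MAC-1- samples, and the 4 week MAC-1low samples overlapped with both. SS MAC-1low samples were low, at 6.61, 13.4 and 9.52 CPM, and SS MAC-1- samples had 37.9, 6.59 and 6.19 CPM. For *Tsc1* the log2 fold change was 1.30 (SE 0.76, adjusted p = 0.498) in 4 week MAC-1+ HSCs set against 4 week MAC-1- and 1.94 (SE 0.77, adjusted p = 0.343) against SS MAC-1low HSCs, both with edgeR, and DESeq2 called the latter (0.0951).

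As a list, 8 of the 9 genes were on the positive side in MAC-1+ relative to MAC-1- HSCs at 4 weeks, with a median of 1.27, where 52.4% of all genes tested were positive with a median of 0.07. The 9 genes were chosen with earlier results of these data known, so that their shared direction is not independent evidence. With the size factors of DESeq2 in edgeR all 9 were positive, since *Klf2* moved to just above 0. In 6 of the 9 (*Foxo1*, *Foxo4*, *Txnip*, *Nupr1*, *Btg1* and *Tsc1*) the groups did not overlap, MAC-1+ being higher, as in 10.1% of all genes. The tools differed in the count of calls. edgeR called 1 of the 9 genes, with 3 at an unadjusted p below 0.05, as were 13.4% of all genes. DESeq2 called 3 (10.2% of all genes with an adjusted p) and limma-voom called 3 (all genes 6.52%), in both cases *Txnip*, *Foxo1* and *Nupr1*.

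**Figure D3:**
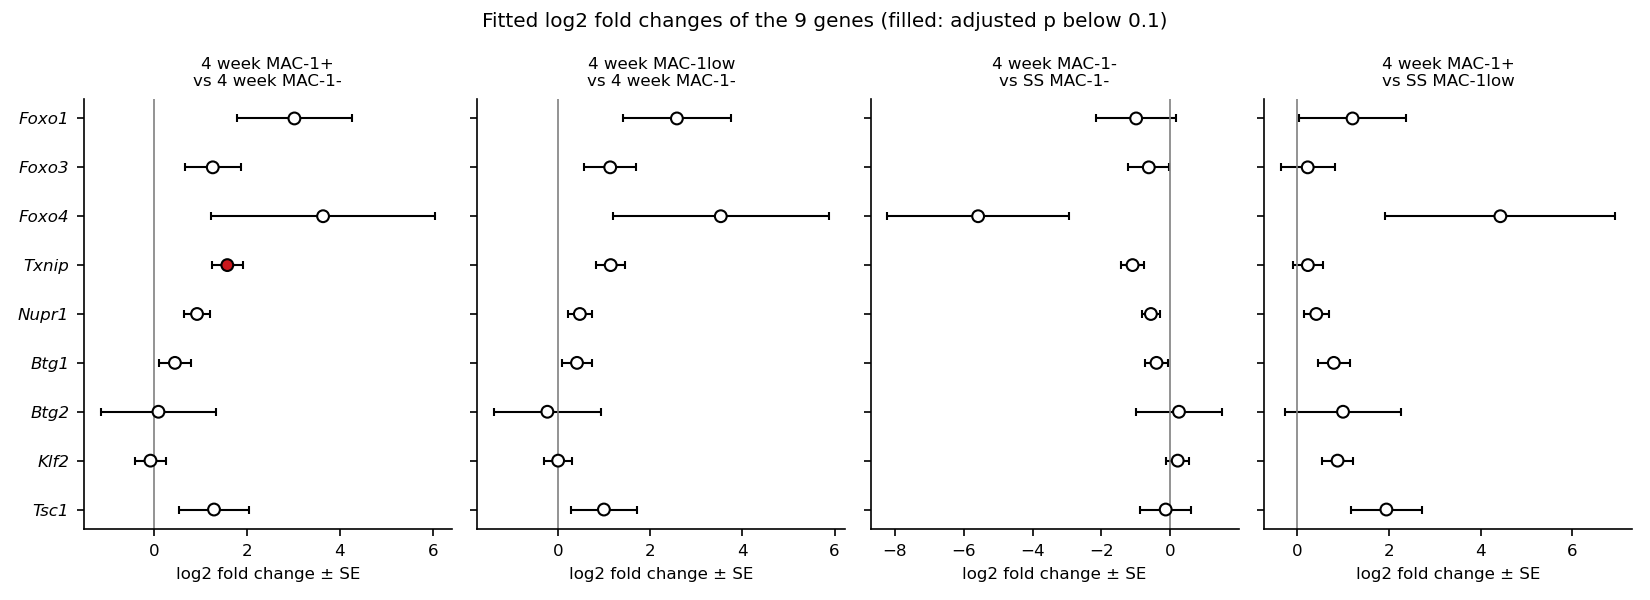
Fitted log2 fold changes ± SE (edgeR) of the 9 genes in 4 comparisons, named above each panel as first against second population. *Txnip* in MAC-1+ relative to MAC-1- HSCs at 4 weeks (1.58) is the only filled point, that is, the only one with an adjusted p below 0.1.

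The remaining comparisons gave 0 called members each with edgeR. With 4 week MAC-1low set against 4 week MAC-1- HSCs 7 of 9 were positive (median 0.99, against 0.05 over all genes), 5 were higher without overlap (all genes 5.22%), and 0 were called (all genes 0.278%). There 2 had an unadjusted p below 0.05 (all genes 7.25%), DESeq2 called 1 (all genes 3.12%) and limma-voom called 1 (all genes 2.34%). This comparison shares its 4 week MAC-1- samples with the former. With 4 week MAC-1+ set against 4 week MAC-1low HSCs, where 0.0% of all genes were called, 0 members had an unadjusted p below 0.05 (all genes 6.85%), and DESeq2 (all genes 2.42%) and limma-voom (all genes 0.0366%) called 0. *Txnip* was the only member without overlap there (log2 fold change 0.44, SE 0.31).

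Within steady state and between steady state and 4 weeks, edgeR again called 0 of the 9 genes. In SS MAC-1low against SS MAC-1- HSCs 0 were called (all genes 0.0146%), 2 had an unadjusted p below 0.05 (*Klf2* and *Foxo4*, all genes 9.36%), and DESeq2 called 1 (all genes 5.6%) and limma-voom 0 (all genes 0.0%). In 4 week MAC-1- against SS MAC-1- HSCs 3 (*Txnip*, *Nupr1* and *Btg1*) were lower without overlap (all genes 7.39%), 0 were called (all genes 0.432%), 1 had an unadjusted p below 0.05 (all genes 10.4%), and DESeq2 called 1 (all genes 6.83%) and limma-voom 0 (all genes 0.637%). In 4 week MAC-1low against SS MAC-1low HSCs 0 were called (all genes 0.0439%) with 3 at an unadjusted p below 0.05 (*Btg1*, *Tsc1* and *Klf2*, all genes 8.89%), and DESeq2 called 1 (all genes 4.01%) and limma-voom 0 (all genes 0.139%). In 4 week MAC-1+ against SS MAC-1- HSCs 0 were called (all genes 2.36%), 0 had an unadjusted p below 0.05 (all genes 14%), and DESeq2 (all genes 11%) and limma-voom (all genes 1.62%) called 0. In 4 week MAC-1+ against SS MAC-1low HSCs all 9 were positive (median 0.88, against -0.01 over all genes) and 4 (*Foxo4*, *Btg1*, *Klf2* and *Tsc1*) were higher without overlap (all genes 7.69%). There 0 were called (all genes 1.42%), 3 had an unadjusted p below 0.05 (all genes 12.1%), and DESeq2 called 2 (all genes 8.43%) and limma-voom 0 (all genes 0.908%). In the interaction of the MAC-1low against MAC-1- effect with time, 0 were called (all genes 0.0586%), 2 had an unadjusted p below 0.05 (*Btg1* and *Foxo4*, all genes 8.73%), and DESeq2 called 1 (all genes 4.68%) and limma-voom 0 (all genes 0.132%).

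Other genes of the same pathways were read in MAC-1+ relative to MAC-1- HSCs at 4 weeks from 6 lists of 130 genes found in the table, of which 117 were tested and edgeR called 6. Over all genes tested there, edgeR called 1.19% higher and 2.06% lower, and 13.4% had an unadjusted p below 0.05. DESeq2 called 10.2% of the genes to which it gave an adjusted p. The counts per list stand beside these shares. In the list of PI3K, AKT and FoxO regulators, 1 of 29 tested genes rose and 1 fell, 8 had an unadjusted p below 0.05 and DESeq2 called 8. *Pik3ip1*, an inhibitor of PI3K, was at 38.9, 105 and 131 CPM in 4 week MAC-1+ samples, against 22.6, 27.1 and 22.5 CPM in 4 week MAC-1- samples (log2 fold change 1.92, SE 0.52, adjusted p = 0.0813, edgeR). *Ywhaz*, a 14-3-3 protein of the kind that holds FoxO proteins in the cytoplasm, was at 234, 291 and 279 CPM against 556, 430 and 400 CPM (log2 fold change -0.79, SE 0.19, adjusted p = 0.0537). The list's median was 0.20, against 0.07 over all genes, and 15 of the 29 were positive, as were 52.4% of all genes.

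In the list of FoxO target genes 1 of 26 tested rose and 0 fell, with 21 positive (52.4% of all genes) and a median of 0.34 (0.07 over all genes). The gene that rose was *Ccng2*, cyclin G2, a cyclin linked to growth arrest, with 234, 137 and 87.1 CPM in 4 week MAC-1+ samples, against 25.0, 69.6 and 25.5 CPM in 4 week MAC-1- samples (log2 fold change 1.93, SE 0.49, adjusted p = 0.0638, edgeR). In this list 2 of 26 genes had an unadjusted p below 0.05, a smaller share than the 13.4% of all genes. DESeq2 called 2 (all genes 10.2%). On the other side *Prdx3*, a mitochondrial peroxidase, had the most negative value among well counted genes (log2 fold change -0.60, SE 0.30, adjusted p = 0.415).

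The thioredoxin system held the gene with the smallest adjusted p of the 6 lists. *Txn1*, the thioredoxin that TXNIP binds and inhibits, fell as *Txnip* rose, to 817, 679 and 593 CPM in 4 week MAC-1+ from 1471, 1419 and 1165 CPM in 4 week MAC-1- samples (log2 fold change -0.96, SE 0.16, adjusted p = 0.00563, edgeR). The 4 week MAC-1low samples lay in between (1096, 1132, 891 and 982 CPM). *Arrdc3*, an alpha-arrestin of the same family as *Txnip*, was at 109, 84.4 and 70.2 CPM in 4 week MAC-1+ samples, against 37.4, 15.8 and 19.96 CPM in 4 week MAC-1- samples (log2 fold change 1.85, SE 0.50, adjusted p = 0.0822, edgeR). These were 1 higher and 1 lower of 10 tested in the list of thioredoxin and alpha-arrestin genes, of which 6 were positive. The list had a median of 0.21, 2 genes at an unadjusted p below 0.05 (all genes 13.4%) and 2 called by DESeq2 (all genes 10.2%).

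Of the BTG/TOB and CCR4-NOT genes, 1 of 14 rose and 0 fell, with 11 positive and a median of 0.29. There 3 had an unadjusted p below 0.05 (all genes 13.4%) and 2 were called by DESeq2 (all genes 10.2%). *Tob1*, an antiproliferative relative of *Btg1* and *Btg2*, was at 27.4, 92.4 and 89.1 CPM in 4 week MAC-1+ samples, against 22.8, 18.9 and 10.1 CPM in 4 week MAC-1- samples (log2 fold change 2.01, SE 0.50, adjusted p = 0.0566, edgeR). *Cnot9*, a subunit of the deadenylase listed under its older name *Rqcd1*, had -1.06 (SE 0.41, adjusted p = 0.271). With edgeR, 0 of 26 TSC and mTORC1 genes were called (2 at an unadjusted p below 0.05, 1 called by DESeq2), with 12 positive and a median of -0.12. In this list *Fnip1*, a partner of folliculin, had 1.70 (SE 0.50, adjusted p = 0.112) and *Rptor*, the raptor subunit of mTORC1, -1.29 (SE 1.06, adjusted p = 0.685). In the KLF family 0 of 12 were called (1 at an unadjusted p below 0.05, 1 called by DESeq2), with 9 positive and a median of 0.61. The largest values there, among genes with a mean of at least 50 counts, were in *Klf7* (1.79, SE 2.27, adjusted p = 0.846) and in the erythroid factor *Klf1* (-3.67, SE 2.91, adjusted p = 0.675). Single samples carried much of these values. *Klf7* moved to 4.71 without 4 week MAC-1- replicate 2 and to 0.60 without 4 week MAC-1+ replicate 1, *Klf1* to -10.3 without 4 week MAC-1+ replicate 3, and *Rptor* to -0.41 without 4 week MAC-1- replicate 2.

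**Figure D4:**
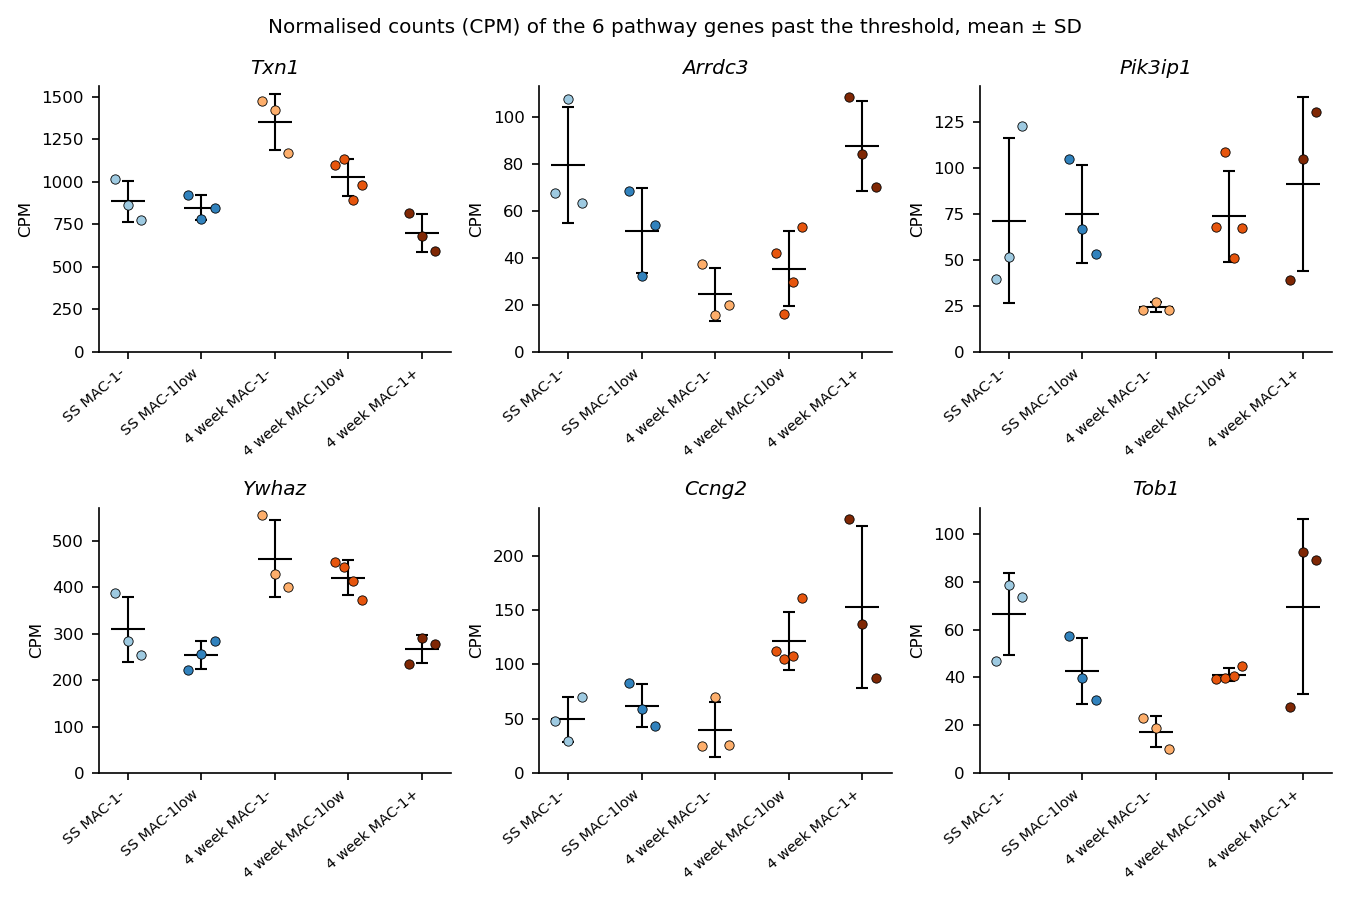
CPM (linear axes) of the 6 pathway genes called in MAC-1+ relative to MAC-1- HSCs at 4 weeks, in each sample (points) with the mean and SD of each population. *Txn1* falls from 1352 CPM on average in 4 week MAC-1- to 696 CPM in 4 week MAC-1+ HSCs, and *Tob1* rises from 17.3 to 69.6 CPM.

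Of these 6 calls only that of *Txn1* was kept when any single sample was left out, with adjusted p of 0.00433 to 0.0337 (edgeR), and in a model of the 6 samples compared alone it had an adjusted p of 0.103. *Tob1* was not called without 4 week MAC-1- replicate 1, 2 or 3 (0.108, 0.169 and 0.232) or 4 week MAC-1+ replicate 2 or 3 (0.179 and 0.172). *Ywhaz* was not called without 4 week MAC-1- replicate 1 or 2 (0.241 and 0.117) or 4 week MAC-1+ replicate 1, 2 or 3 (0.167, 0.115 and 0.145). *Ccng2* was not called without 4 week MAC-1- replicate 1 or 3 (0.240 and 0.256) or 4 week MAC-1+ replicate 1 or 2 (0.216 and 0.116). *Pik3ip1* was not called without 4 week MAC-1- replicate 1, 2 or 3 (0.241, 0.210 and 0.257), 4 week MAC-1+ replicate 2 or 3 (0.199 and 0.256), 4 week MAC-1low replicate 1 or 4 (0.1002 and 0.109) or SS MAC-1low replicate 2 (0.1002). *Arrdc3* was not called without 4 week MAC-1- replicate 2 or 3 (0.297 and 0.288), 4 week MAC-1+ replicate 1, 2 or 3 (0.203, 0.155 and 0.127), 4 week MAC-1low replicate 3 (0.102), SS MAC-1- replicate 1 (0.106) or SS MAC-1low replicate 3 (0.107).

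Other gene groups moved between the same populations. Of 20 cell cycle genes 2 fell in MAC-1+ relative to MAC-1- HSCs at 4 weeks with edgeR, *Mcm3* and *Tyms* (all genes 2.06%). In this list 9 had an unadjusted p below 0.05 (all genes 13.4%) and DESeq2 called 6 (all genes 10.2%). Of the 20, 18 were negative, and the sum over the list was 1645 to 2275 CPM against 3154 to 3698 CPM. Immediate-early genes rise within minutes of stimulation or cell handling, and the list used here was drawn up without the 9 genes. Of 19 tested 2 rose, *Fos* and *Zfp36* (all genes 1.19%), 7 had an unadjusted p below 0.05 and DESeq2 called 8. The sum over that list was 3514 to 4798 CPM in 4 week MAC-1+, 3514 to 3938 in 4 week MAC-1low, 2173 to 2929 in 4 week MAC-1-, 3141 to 3885 in SS MAC-1- and 2071 to 2479 CPM in SS MAC-1low samples. The lowest mean CPM of *Foxo1*, *Foxo3*, *Txnip* and *Nupr1* was in 4 week MAC-1- HSCs. That of *Foxo4*, *Btg1*, *Btg2*, *Klf2* and *Tsc1* was in SS MAC-1low HSCs, for *Foxo4* at 0.120 CPM against 0.209 CPM in 4 week MAC-1- HSCs. How many of all genes have their lowest mean in these populations was not counted, and the joint F test called 0 of the 9 genes. The part of the cell cycle or immediate-early genes in the values of the 9 genes was not tested.

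Markers of other cells moved too. Megakaryocyte markers summed to 4162 to 6659 CPM in 4 week MAC-1- and 136 to 190 CPM in 4 week MAC-1+ samples, where 3 of 6 tested fell, and neutrophil markers to 23.1 to 69.3 and 164 to 6908 CPM, where 2 of 5 tested rose. An unadjusted p below 0.05 was found for 4 megakaryocyte and 5 neutrophil markers (all genes 13.4%), and DESeq2 called 4 and 5 (all genes 10.2%). The highest neutrophil sum came from 4 week MAC-1+ replicate 3, with *S100a8* at 3902 CPM, against 94.2 and 464 CPM in replicates 1 and 2. Of the erythroblast markers 1 of 4 tested rose (11.9 to 19.1 CPM in 4 week MAC-1-, 77.1 to 178 in 4 week MAC-1+ samples, with *Alas2* at 0 in all samples), and of the T and NK cell markers 1 of 3 fell (323 to 643 and 15.97 to 175 CPM, with *Ncr1* at 0 in all samples). In each of these 2 lists 1 had an unadjusted p below 0.05, and DESeq2 called 1 erythroblast marker and 2 T and NK cell markers. Of monocyte/macrophage (3 tested, 351 to 583 and 457 to 718 CPM) and B cell markers (1 tested, 6.39 to 33.6 and 15.03 to 119 CPM) 0 were called with edgeR and 0 with DESeq2, with 0 at an unadjusted p below 0.05. The part of these markers in the values of the 9 genes was not tested.

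Across the 16 samples the 9 genes did not follow a single pattern. Pearson correlations of their log2 CPM, which share libraries and depth, ran from -0.41 (*Nupr1* and *Btg2*) to 0.61 (*Txnip* and *Nupr1*), and among the FoxO genes from 0.13 (*Foxo1* and *Foxo4*) to 0.40 (*Foxo1* and *Foxo3*). The genes most like *Txnip* among 11069 with a mean of at least 50 counts were *Laptm4b* (r = 0.92) and *Herc3* (0.89). For *Foxo1* they were *Txndc16* (0.89) and *Znrf1* (0.86), for *Foxo3* *Ep300* (0.85) and *Ptpre* (0.82), and for *Foxo4* *Stat4* (0.83) and *Rnf111* (0.82). *Ep300*, an acetylase of FoxO proteins, stood in the list of FoxO regulators. For *Nupr1* they were *Arnt* (0.84) and *Napb* (0.79), for *Tsc1* *Arhgap15* (0.81) and *Spo11* (0.80), and for *Klf2* *Ercc6l2* (0.81) and *Fez2* (0.79). *Btg1* was most like *Lpcat3* (0.90) and the immediate-early gene *Egr1* (0.87), and *Btg2* like *Primpol* (0.88) and *Hps4* (0.85). Each is the highest of many values over 16 samples and is given as a description.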

How the data were processed

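RNA of sorted HSCs was sequenced in 16 samples of 5 populations, which were mapped from sample titles. The authors deposited 1 table of counts, whole numbers of reads per gene without normalization, which came out of an nf-core workflow with STAR as aligner. Not given in the sources used here: counting program, strand setting, genome build, annotation. Of the gene identifiers 98.2% were found in GENCODE M21 (GRCm38), which gave positions and exon lengths here. Total counts per sample were 13781278 to 28580658. PCR copies are counted as reads, so floors cover counting error only.

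Tests were run with R 4.3.3 and edgeR 4.0.16 (TMM factors, default filter on low counts, robust quasi-likelihood test, 1 model of all samples, Benjamini-Hochberg adjustment), and plots drawn in Python 3.11.15 with matplotlib 3.10.9. log2 CPM used a prior count of 2. The scripts were tested on simulated data. Alternatives were DESeq2 1.42.0, the tool of the study, limma 3.58.1 (voom with sample weights), other filters, DESeq2's size factors, thinned counts, detected genes per sample as covariate, a replicate block, only the groups compared, and leaving out each sample.

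The 9 genes, the lists, their tests and the naming rule were chosen with earlier results of these data known. From each of the 6 pathway lists, genes called in MAC-1+ relative to MAC-1- HSCs at 4 weeks were named (at most 4 per direction), or otherwise the largest change per direction among genes with a mean of at least 50 counts, and 2 most correlated genes for each of the 9. Genes of the lists for cell cycle, immediate-early response and other cell types were named where a list is reported. *Rps6kb2* and *Txnrd2*, which stand on more than 1 line of the table, were left out.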

Additional observations from a re-analysis of the deposited data

Results flagged for a closer look

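In 4 week MAC-1low HSCs, the only population of 4 samples, 21 genes were checked for a sample far from the others by Dixon's test at its 95% critical value, which chance passes in about 1 of 20 groups, and 3 passed. *Btg1* was at 146 CPM in replicate 3, with the next sample at 88.2 CPM and a gap of 0.902 of the range. *Ccng2* was at 161 CPM in replicate 4, with the next sample at 112 CPM (0.873 of the range). *Fnip1* was at 108 CPM in replicate 1, with the next sample at 65.3 CPM (0.875 of the range).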

How the results depend on the processing

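The call of *Txnip* in MAC-1+ relative to MAC-1- at 4 weeks was kept under 8 of 9 alternatives, all but the one fitted to those groups alone. Members called there were 3 with DESeq2 (10.2% of all genes with an adjusted p) and 3 with limma-voom (6.52%). DESeq2's size factors gave 2 (392 of all 13661 genes) and the stricter filter 2 (456 of 11998). Thinned counts gave 2 (421 of 13436) and only the groups compared 0 (154 of 11678). With each sample left out 0 to 2 members were called (0 on leaving out replicate 1 or 3 of 4 week MAC-1-, 2 on leaving out replicate 2 of 4 week MAC-1+). DESeq2 called 1 in MAC-1low relative to MAC-1- at 4 weeks (3.12% of all genes with an adjusted p), 1 in SS MAC-1low against SS MAC-1- (5.6%), 1 in 4 week relative to SS MAC-1- (6.83%), 1 in 4 week MAC-1low against SS MAC-1low (4.01%), 2 in 4 week MAC-1+ against SS MAC-1low (8.43%), 1 in the joint test (10.9%) and 1 in the interaction (4.68%). limma-voom called 1 in MAC-1low relative to MAC-1- at 4 weeks (2.34% of all genes) and 1 in the joint test (2.66%), where no filter gave 1 and leaving out a sample 0 to 1 (1 without SS MAC-1- replicate 3). Of the pathway genes (117 tested), 6 were called as reported (all genes 3.25%), 16 with DESeq2 (all genes 10.2%) and 11 with limma-voom (all genes 6.52%). The replicate block gave 2 (327 of all 13661 genes) and detected genes as covariate 2 (332 of 13661). Only the groups compared gave 0 (154 of 11678), and no filter on low counts gave 4 (348 of 31871). With each sample left out 1 to 8 were called (1 without 4 week MAC-1+ replicate 2, 3 without its replicate 1, 2 without its replicate 3 or any 4 week MAC-1- sample). The cause was not tested.

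The replicate block left 1 member called in MAC-1+ relative to MAC-1- at 4 weeks (*Txnip*, adjusted p = 0.0408, edgeR) and 0 elsewhere. These replicate numbers are not shown to pair samples. The deviations of 30 same-numbered pairs from their group means correlated with r of -0.025 to 0.040, and those of 72 other pairs with -0.026 to 0.028. The same-numbered pairs include pairs of SS with 4 week samples. The column names carry another numbering, where 4 week MAC-1- replicate 2 follows replicate 3 of 4 week MAC-1+ and MAC-1low. In it 4 week MAC-1- replicate 3 follows 4 week MAC-1low replicate 4. A block on that numbering was not tested. Replicate number 4 exists in 4 week MAC-1low alone, so that the block absorbs that sample.

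Of 81 log2 fold changes of the 9 genes, 24 turned sign in 23 of 727 alternative values and 47 of 1296 values with a sample left out, and 23 of the 24 were below 1 SE as reported. *Btg2* turned with limma-voom to -0.95 (MAC-1+ relative to MAC-1- at 4 weeks), -0.65 (against 4 week MAC-1low), 0.30 (SS MAC-1low against SS MAC-1-) and -0.61 (interaction), and with the replicate block to -0.29, -0.21, -0.27 (4 week relative to SS MAC-1-) and -0.56 (4 week MAC-1+ against SS MAC-1-). *Klf2* turned to 0.00060 with DESeq2 and 0.0028 with its size factors in MAC-1+ relative to MAC-1- at 4 weeks, and in MAC-1low relative to MAC-1- at 4 weeks to 0.034, 0.034, 0.039 (no filter), 0.013 (stricter filter) and 0.015 (only the groups compared). *Foxo4* turned in MAC-1+ relative to MAC-1low at 4 weeks to -0.40 (block) and -0.34 (covariate) and against SS MAC-1- to 2.36 (limma-voom), 0.17 (block) and 0.95 (covariate). *Btg1* (-0.014, MAC-1+ relative to MAC-1low at 4 weeks) and *Foxo3* (-0.092, 4 week MAC-1low against SS MAC-1low) turned with the block and *Tsc1* (0.21, 4 week MAC-1- against SS MAC-1-) with limma-voom.

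With each sample left out, log2 fold changes that turned sign ran as follows. In MAC-1+ relative to MAC-1- at 4 weeks they ran from -1.07 to 0.68 for *Btg2* and -0.24 to 0.064 for *Klf2*, and for *Klf2* in MAC-1low relative to MAC-1- at 4 weeks from -0.17 to 0.19. In MAC-1+ relative to MAC-1low at 4 weeks they ran from -0.86 to 0.91 for *Btg2*, -0.042 to 0.45 for *Foxo3*, -0.092 to 0.29 for *Btg1*, -0.26 to 0.13 for *Klf2* and -0.26 to 1.12 for *Foxo4*. In SS MAC-1low against SS MAC-1- they ran from -1.21 to 0.66 for *Btg2*, -0.0025 to 0.75 for *Foxo3*, -1.18 to 0.62 for *Tsc1* and -0.16 to 0.12 for *Nupr1*. In 4 week MAC-1- against SS MAC-1- they ran from -0.31 to 1.56 for *Btg2*, -0.53 to 1.27 for *Tsc1* and -2.93 to 0.47 for *Foxo1*, and in 4 week MAC-1low against SS MAC-1low from -0.26 to 0.38 for *Foxo3* and -0.12 to 0.011 for *Nupr1*. In 4 week MAC-1+ against SS MAC-1- they ran from -0.86 to 1.66 for *Btg2*, -0.11 to 0.31 for *Btg1*, -0.070 to 0.31 for *Klf2* and -2.52 to 2.68 for *Foxo4*, against SS MAC-1low from -0.21 to 1.57 for *Btg2* and -0.11 to 0.54 for *Foxo3*, and in the interaction from -0.90 to 0.97 for *Btg2*.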

Other observations

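Sequence relatives of the 9 genes that could share reads with them were looked up. *Nupr1l*, which is named for its likeness to *Nupr1*, had 6 to 607 counts, with 0.844 to 3.32 CPM in 4 week MAC-1-, 3.39 to 7.71 in 4 week MAC-1+, 0.308 to 8.32 in 4 week MAC-1low and up to 31.6 CPM in SS MAC-1low samples. That highest value came from SS MAC-1low replicate 1, where *Nupr1* had 124 CPM. The *Btg1* pseudogenes *Btg1-ps1* and *Btg1-ps2* had at most 3 and 9 counts in any sample.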
